A study of Mus musculus with 3 samples.

Results

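Rab genes encode the largest family of small GTPases that direct membrane traffic, and the account here covers every gene of that name to which the deposited table assigned an H3K27ac region in tumour myeloid cells of mice given vehicle or a CBP/EP300 bromodomain inhibitor. The members were the symbols in the table's gene column that begin with Rab followed by a digit: 52 of 13443 listed genes, with 158 of 22399 regions. The symbol rule took in 44 Rab GTPases and 8 genes that are not GTPases but bind or regulate Rabs (Rab11fip1 to Rab11fip5, Rab3gap1, Rab3gap2 and Rab3il1), so the name Rab GTPase does not hold for those 8, which are called partner genes here. No region was listed for more than 1 member. The 158 regions lay on 18 chromosomes.

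A Rab protein is a switch: bound to GTP it sits on a membrane and recruits effectors, and bound to GDP it is held in the cytosol by GDP dissociation inhibitor (GDI). Exchange factors load GTP, GTPase activating proteins end the signal, and a lipid tail added by geranylgeranyl transferase anchors the protein. Different Rabs mark different compartments. Rab5 proteins act on early endosomes, Rab11 proteins on recycling endosomes, Rab1 and Rab2 proteins between the endoplasmic reticulum (ER) and the Golgi, and Rab27a at granules awaiting release. In neutrophils and monocytes these steps serve phagocytosis, phagosome maturation and degranulation. Acetylation of lysine 27 on histone H3 (H3K27ac) marks active promoters and enhancers, and CBP and EP300 are the acetyltransferases that deposit most of it.

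The libraries came from myeloid-derived suppressor cells, sorted by flow cytometry as CD45+CD11b+Ly6C+Ly6G+/-F4-80- from subcutaneous tumours in female SCID.beige mice, which lack functional B and T cells and have impaired natural killer cells. The mice were 6 to 8 weeks old and were inoculated with MDA.MB.231-X1.1, derived from a human breast cancer line, or with CT26, from a mouse colon carcinoma. Both library titles name triple-negative breast cancer by its abbreviation. Treatment began when tumours averaged 150 to 200 mm3. The vehicle group received MCT and the inhibitor group received GNE-781 at 25 mg/kg by mouth, 2 doses a day for 7 days, before tumours were digested and cells sorted. Each treatment had 1 H3K27ac library, from a number of mice that is not given in the sources used here. With 1 library per treatment no difference here has a replicate check, no p-value or SD can be given, and the depth of the libraries is unknown because the table holds no read counts.

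Every value below is the authors' average fragment pileup over a region, called the signal. The difference is log2(inhibitor signal + 1) minus log2(vehicle signal + 1), so that -1 is a 2-fold lower signal on that scale, and a region counts as lower when it reaches -1. The start region of a gene is the assigned region whose midpoint is nearest the gene's start. A region is said to be called in a library when the authors' table records an interval for it there. All 158 member regions were called with vehicle, and none was called with inhibitor alone. A region thus entered the list through a high vehicle signal, and a lower inhibitor signal has to be read beside that of all regions. Nearly the whole table was lower: 93.4% of all regions and 94.9% of the start regions of all genes reached the 2-fold mark. Of the sort antigens, Ptprc (CD45), Itgam (CD11b), Ly6c2, Ly6g and Emr1 (F4/80) had a region and Ly6c1 did not. Emr1 had one although the cells were sorted as F4/80 negative. All 7 neutrophil markers looked for had a region, and so did 2 of 3 monocyte markers, Csf1r and Ly6c2 but not Ccr2. Of other cell types, 2 of 5 T, B and NK cell markers (Cd3d and Cd79a) had a region. So did 1 of 3 epithelial tumour markers (Krt8), 2 of 3 endothelial markers (Pecam1 and Kdr) and none of 3 fibroblast markers. In a bulk library, fewer cells of a type and less acetylation per cell cannot be told apart.

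Promoter sequences of 6 members are shown because their start regions bracket the results. Rab32, Rab6a and Rab11a were among the 8 members with the largest losses, and Rab35, Rab19 and Rab34 had the 3 smallest. Each is the 250 bases before the start in RefSeq (GRCm38.p6), written 5′ to 3′ on the gene's strand. Capitals mark any match, on either strand, to 1 of 9 motifs. They are the CCAAT box, the Sp1-type box GGGCGG, the E-box CACGTG, the cAMP response element TGACGTCA, the ETS-type CCGGAAG, the PU.1-type GAGGAAG, the C/EBP-type TTGCNNAA, the AP-1-type TGANTCA and the STAT-type TTCNNNGAA. Matches can overlap and then form 1 run of capitals. The intervals are chr10:10558208-10558457, minus strand for Rab32, chr7:100607336-100607585, plus strand for Rab6a and chr9:64737757-64738006, minus strand for Rab11a. They are chr5:115631737-115631986, plus strand for Rab35, chr6:39381103-39381352, plus strand for Rab19 and chr11:78188177-78188426, plus strand for Rab34.
Rab32: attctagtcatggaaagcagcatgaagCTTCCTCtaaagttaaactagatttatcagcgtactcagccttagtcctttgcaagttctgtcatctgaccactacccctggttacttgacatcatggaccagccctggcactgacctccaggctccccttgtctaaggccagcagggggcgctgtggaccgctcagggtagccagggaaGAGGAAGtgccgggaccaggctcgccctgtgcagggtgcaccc
Rab6a: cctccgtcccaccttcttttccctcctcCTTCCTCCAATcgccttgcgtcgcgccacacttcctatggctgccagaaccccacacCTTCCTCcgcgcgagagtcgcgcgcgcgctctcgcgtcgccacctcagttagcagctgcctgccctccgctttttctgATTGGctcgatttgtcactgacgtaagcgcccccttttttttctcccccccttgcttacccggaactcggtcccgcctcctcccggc
Rab11a: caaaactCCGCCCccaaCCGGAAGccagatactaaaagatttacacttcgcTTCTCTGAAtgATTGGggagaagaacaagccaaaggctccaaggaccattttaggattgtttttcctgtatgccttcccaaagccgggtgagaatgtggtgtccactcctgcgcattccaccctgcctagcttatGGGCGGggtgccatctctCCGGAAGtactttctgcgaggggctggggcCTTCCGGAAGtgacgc
Rab35: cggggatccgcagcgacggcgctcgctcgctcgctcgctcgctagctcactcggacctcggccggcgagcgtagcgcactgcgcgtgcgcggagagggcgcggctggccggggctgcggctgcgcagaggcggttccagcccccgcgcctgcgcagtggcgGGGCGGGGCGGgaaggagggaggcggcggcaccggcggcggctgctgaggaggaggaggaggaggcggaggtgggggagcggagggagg
Rab19: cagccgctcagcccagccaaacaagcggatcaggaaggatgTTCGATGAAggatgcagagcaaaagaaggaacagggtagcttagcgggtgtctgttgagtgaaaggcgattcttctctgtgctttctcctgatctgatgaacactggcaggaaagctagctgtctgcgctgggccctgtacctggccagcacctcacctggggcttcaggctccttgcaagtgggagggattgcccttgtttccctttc
Rab34: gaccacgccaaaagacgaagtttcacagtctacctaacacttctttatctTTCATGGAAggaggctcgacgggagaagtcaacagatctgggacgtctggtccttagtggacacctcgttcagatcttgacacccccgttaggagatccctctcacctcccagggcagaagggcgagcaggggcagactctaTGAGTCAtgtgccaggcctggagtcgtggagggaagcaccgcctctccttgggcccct

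The Rab32 window held 2 matches to GAGGAAG and no match to the other motifs. It also held only 5 CG dinucleotides, the fewest of the 35 member promoters whose start lay inside the start region. The Rab6a window held 2 CCAAT and 2 GAGGAAG matches, with 24 CG dinucleotides. The Rab11a window held 4 matches to CCGGAAG, 2 to GGGCGG, 1 to CCAAT and 1 to TTCNNNGAA. Among members with small losses the composition ran from the most to nearly the fewest CG dinucleotides. Rab35 had 39, the highest of the 35, and 2 overlapping GGGCGG matches. Rab19 had 6 and Rab34 had 10, with a TTCNNNGAA match in each and a TGANTCA match in Rab34. Neither end of the range was thus tied to a single base composition in these 6 windows.

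Of the 52 members, 44 matched a RefSeq promoter, and the 35 inside their start region had a median of 18 CG dinucleotides per window. The 6975 promoters of all genes that lay in their start region had a median of 17, and all 32851 RefSeq promoters had 6. GC content followed the same order at 62%, 60.4% and 52.4%. The Sp1-type GGGCGG was found in 71.4% of the 35 member windows, 61.9% of the marked promoters of all genes and 32.7% of all promoters. For CCAAT the shares were 42.9%, 37.1% and 33.8%. For CACGTG they were 14.3%, 8.92% and 6.02%. The Rab windows thus looked like marked promoters in general, that is, rich in CG and in GC boxes. Of the myeloid-type motifs, GAGGAAG was found in 8.57% of member windows, 11.1% of marked promoters and 10.6% of all. TTGCNNAA was found in 5.71%, 7.03% and 9.56%. With 35 windows, 1 window is worth 2.86%, so the shares of both motifs lay within 1 window of those of the marked promoters. A single window held TGANTCA, and a single window held TGACGTCA. The ETS-type CCGGAAG was found in 11.4% of member windows against 17.3% of marked promoters. The STAT-type TTCNNNGAA was found in 8.57% against 5.78%. Over all promoters, TGANTCA was found in 6.75% and in 4.07% of the marked ones. The share for TGACGTCA was 1.55% and 3.30% in the same order. For CCGGAAG it was 6.91% over all promoters and for TTCNNNGAA 7.02%. A match describes the letters of the window and shows no binding.

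How the 2 libraries were scaled is not known, so a shift common to all regions may be a matter of scaling. On the deposited scale, Rab start regions had a strong H3K27ac signal with vehicle and a much lower signal with the inhibitor. Their median signal was 23.8 with vehicle (11.2 to 52.3) and 5.99 with inhibitor (2.87 to 10.1). The median difference was -1.85, with quartiles of -2.03 and -1.60 and a range of -2.34 to -0.53. The signal was at least 2-fold lower at 50 of 52 start regions and higher at none, against 94.9% of the start regions of all genes, so the count is close to the background. Over all genes, start regions had a median of 18.7 with vehicle, 5.28 with inhibitor and a difference of -1.72. Rab start regions were therefore stronger than usual with vehicle, and their inhibitor signal was slightly above that of all genes, not below it.

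The larger median difference went with the higher vehicle signal. When all 22399 regions were divided into 10 classes of vehicle signal, the class median moved from -1.31 in the weakest class to -2.05 in the strongest. Measured from the median of its own class, the median Rab start region deviated by only 0.03, and 25 of 52 lay below their class median. The vehicle value enters both quantities, so part of this relation follows from how the difference is formed. The strongest class held 30.8% of Rab start regions and 19.9% of those of all genes. The median difference within that class was -2.07 for the Rab genes and -2.05 for all genes.

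**Figure D1:**
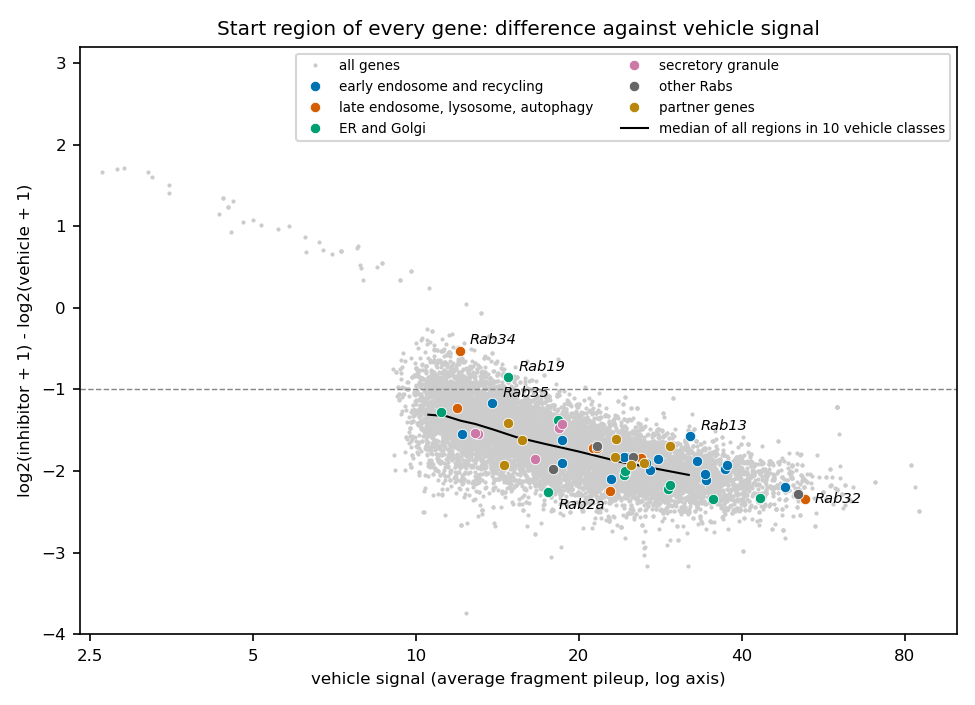
Difference on the log2(signal + 1) scale against the vehicle signal (average fragment pileup, log axis) for the start region of each of 13443 genes (grey) and of 52 Rab genes (coloured by role). The line joins the medians of all regions in 10 classes of vehicle signal, from -1.31 to -2.05, and the dashed line marks -1. Rab points spread on both sides of the line, and Rab34 and Rab19 are the 2 above -1.

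More Rab start regions than start regions in general were still called with the inhibitor. An interval was called at 18 of 52, or 34.6%, against 17.5% of the start regions of all genes. The called ones were the strong ones, with a median vehicle signal of 32.6 against 18.6 for the 34 that were not called. They were also longer, with a median of 2368 bp against 1730 bp. Rab start regions had a median length of 1950 bp, and those of all genes 1581 bp. The bearing of length on the calls was not tested. In the strongest class, 13 of 16 Rab start regions were called (81.2%) against 59.2% of those of all genes. In classes 8 and 9, 5 of 20 were called (25%) against 14.7%. In classes 1 to 7, 0 of 16 were called against 2.34%. A called interval did not mean a spared region, since the median difference was -1.95 at called and -1.83 at uncalled Rab start regions. Counting any region, 21 members kept a call (40.4%), against 25.0% of all genes.

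**Figure D2:**
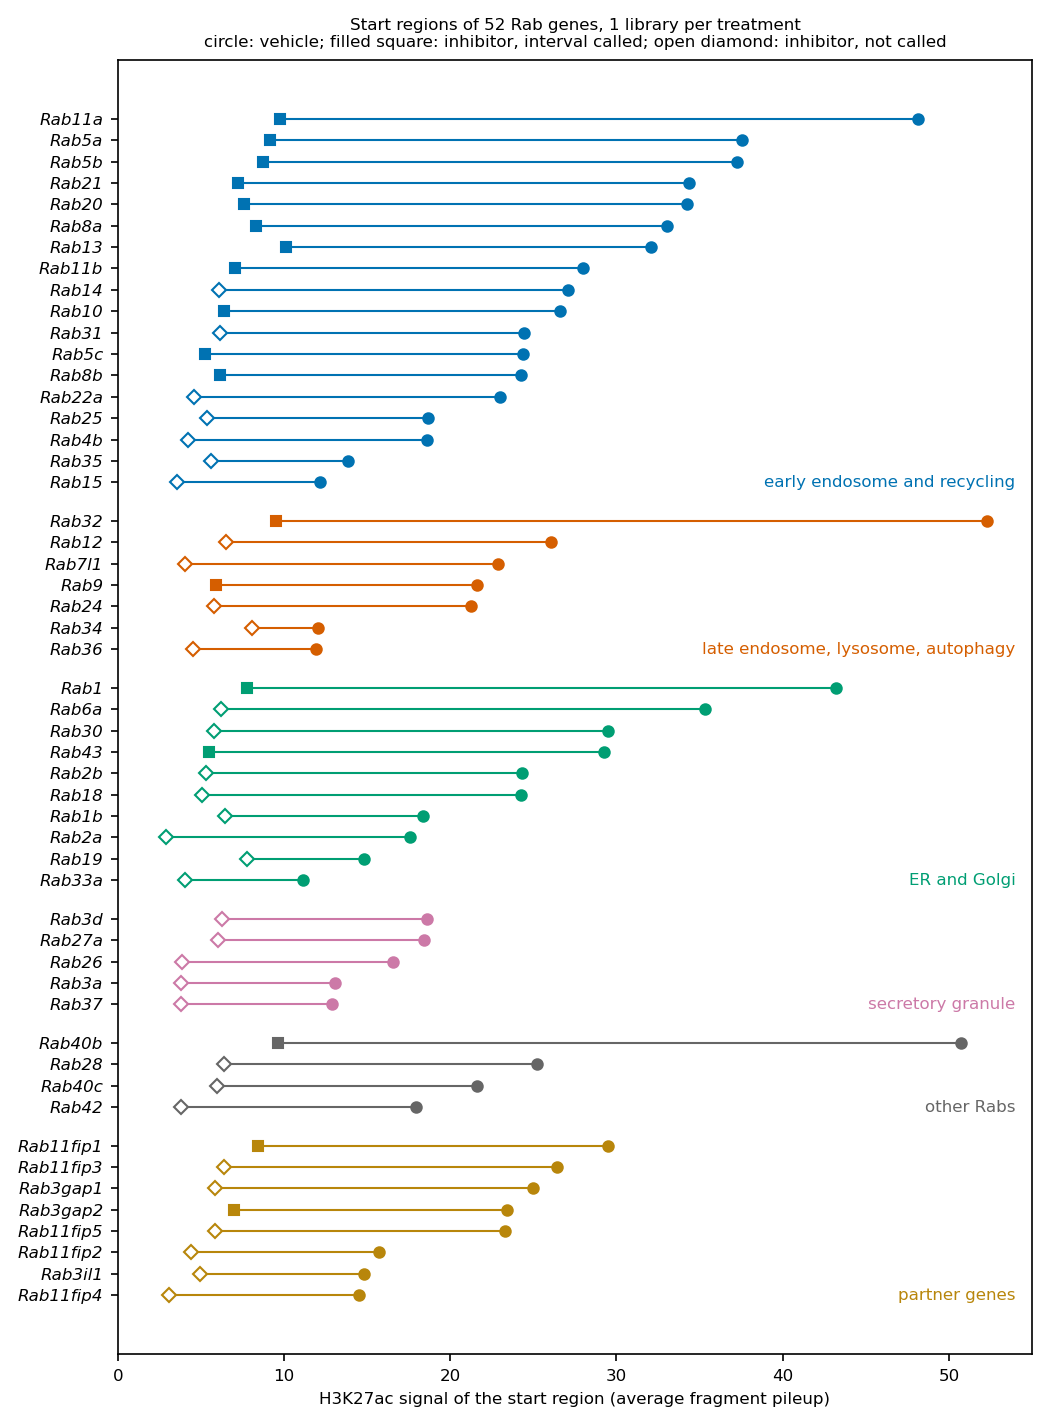
H3K27ac signal of the start region of each of the 52 Rab genes, as average fragment pileup on a linear axis, grouped by role, with 1 library per treatment. Circles are vehicle (11.2 to 52.3), and squares (called) and diamonds (not called) are inhibitor (2.87 to 10.1), joined by a line for each gene.

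The 18 Rabs of early and recycling endosomes had the highest median vehicle signal of the groups and the most calls. Their median was 26.8 with vehicle and 6.26 with inhibitor, and the median difference was -1.91. All 18 were at least 2-fold lower, against 94.9% of the start regions of all genes, and 11 were called with inhibitor, against 17.5%. Rab11a, which drives recycling endosomes back to the plasma membrane, had 48.1 with vehicle and 9.76 with inhibitor, a difference of -2.19, at chr9:64736157-64738255 (GRCm38), 550 bp into the gene and listed for no other gene. Its paralogue Rab11b was weaker with vehicle, at 28.0, and had 7.02 with inhibitor, a difference of -1.85. The inhibitor signals of the pair were closer to each other than their vehicle signals.

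The 3 Rab5 genes, whose products control fusion of early endosomes and new phagosomes, were all called in both libraries. Rab5a had 37.6 with vehicle and 9.14 with inhibitor, at chr17:53478497-53480486. Rab5b had 37.2 and 8.73, and Rab5c had 24.4 and 5.23. Their differences of -1.93, -1.97 and -2.03 spanned 0.10, although the vehicle signals spanned a ratio of 1.54. Rab8a and Rab8b, which send vesicles to the cell surface, were alike in the same way. Rab8a had 33.0 with vehicle and 8.28 with inhibitor, and Rab8b had 24.3 and 6.14, with differences of -1.87 and -1.82 and a call in each.

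Rab20 and Rab21 had broad start regions that were called in both libraries. Rab20, which acts in phagosome maturation in macrophages, had 34.2 with vehicle and 7.57 with inhibitor over 4618 bp. Its 4 regions were alike, with differences between -2.04 and -1.84, and the region 14668 bp into the gene was also called with inhibitor. Rab21, which traffics integrins, had 34.4 and 7.21 over 4311 bp, a difference of -2.11. Rab10 and Rab14, which act on recycling and phagosomal membranes, had 26.6 and 27.1 with vehicle and 6.37 and 6.06 with inhibitor. Their differences were -1.90 and -1.99, and of the pair Rab10 alone was called with inhibitor. Rab31, which links the trans-Golgi network and endosomes, had 24.4 and 6.13. Rab22a, an endosomal Rab related to Rab31, had 23.0 and 4.6, a difference of -2.10.

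Rab13, Rab15 and Rab35 had the 3 smallest losses of the endocytic Rabs. Rab13, known for epithelial junction traffic, had 32.1 with vehicle and the highest inhibitor signal of all 52 start regions, 10.1, a difference of -1.57 that lay 0.48 above its class median. Its start region is also listed for Nup210l and for Rps27, a ribosomal protein gene, and it holds the RefSeq start of Rab13, which lies 5570 bp from the table's. Rab35, which acts in fast recycling, had 13.8 and 5.62 at chr5:115631093-115632100, a difference of -1.16 that lay 0.33 above its class median. The region is shared with Gcn1l1 and with an uncharacterised transcript. Rab15, with 12.2 and 3.53 and a difference of -1.54, was the weakest of the group with vehicle. The epithelial recycling Rab25 and the recycling Rab4b had 18.6 each with vehicle and 5.38 and 4.23 with inhibitor. The Rab25 region lies 5011 bp upstream of its start and is also listed for Lamtor2 and Ubqln4.

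The 7 Rabs of late endosomes, lysosomes and autophagy held both extremes of the family. Rab32, which serves lysosome-related organelles, had the strongest vehicle signal and the largest difference of all 52, with 52.3 and 9.51, or -2.34. The region is chr10:10557356-10558543, 258 bp into the gene, is listed for no other gene and was called in both libraries. A second Rab32 region, 1746 bp into the gene, had 13.9 and 4.29, a difference of -1.5. Rab7l1 (now Rab29), which recruits the kinase LRRK2, had 22.9 and 4.04, a difference of -2.25, or 0.36 below its class median.

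Rab34, which positions lysosomes near the Golgi, was the least affected member. Its start region, chr11:78188339-78189848, had 12.0 with vehicle and 8.06 with inhibitor, a difference of -0.53 that lay 0.86 above its class median. It was not called with inhibitor, although its inhibitor signal was above that of 10 of the 18 start regions that were. The region is listed for 6 other genes, among them the ribosomal protein gene Rpl23a and its intronic small nucleolar RNAs. The other 2 Rab34 regions, 5084 and 10648 bp upstream, had 13.7 and 28.6 with vehicle and 7.07 and 11.1 with inhibitor. Both were called with inhibitor, and their differences of -0.86 and -1.29 were small too. How far the neighbouring genes account for the Rab34 values was not tested.

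Of the remaining late-compartment Rabs, Rab36, a relative of Rab34, had 11.9 and 4.5 and a difference of -1.23, but its nearest region lay 23239 bp downstream of the start and also lists Bcr. Rab9, which returns cargo from late endosomes to the trans-Golgi network, had 21.6 and 5.88 and was called in both libraries. Rab24, linked to autophagy, had 21.3 and 5.78, and Rab12, which sends receptors to lysosomes, had 26.0 and 6.53. The differences of these 3 lay between -1.84 and -1.72, close to the median of -1.72 for the group.

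The 10 Rabs of the ER and Golgi had the largest median difference of the groups, -2.11, and also a wide range, from -2.34 to -0.85. Their median signal was 24.3 with vehicle and 5.63 with inhibitor. At least 2-fold lower were 9 of 10, against 94.9% of the start regions of all genes, and 2 were called with inhibitor, against 17.5%. Rab1 (now Rab1a), which opens traffic from the ER to the Golgi, had 43.2 and 7.76, a difference of -2.33, at chr11:20200484-20203036. Rab6a, which works in retrograde transport at the Golgi, had 35.4 and 6.18, a difference of -2.34, at chr7:100606622-100609172, a region also listed for Mrpl48. Rab6a was the strongest vehicle start region among the members that was not called with inhibitor. Rab2a, which returns membrane to the ER, had 17.6 and the lowest inhibitor signal of all 52 start regions, 2.87. Its difference of -2.26 lay 0.59 below its class median, the farthest below of all members.

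The paralogues Rab1 and Rab1b differed more than any other family compared. Rab1b had 18.3 with vehicle and 6.47 with inhibitor, a difference of -1.37, which is 0.96 from that of Rab1, with vehicle signals that differed by a ratio of 2.36. The Rab1 region is listed for Rab1 alone, and the Rab1b region also for Cnih2 and Klc2. Rab2b had 24.3 and 5.30, a difference of -2.01 that lay 0.26 from that of Rab2a, but its nearest region lay 21793 bp from its start. Rab43 and Rab30, both Golgi Rabs, had 29.2 and 29.5 with vehicle and 5.50 and 5.77 with inhibitor, and Rab43 was called with inhibitor while Rab30 was not. Rab18, which acts at lipid droplets and the ER, had 24.2 and 5.08. Rab33a, grouped here with the Golgi Rabs, had the weakest vehicle signal of all 52 start regions, 11.2, and 4.03 with inhibitor. Its region lies 6092 bp upstream of the table's start and is also listed for Aifm1. The region holds a RefSeq gene end of Rab33a but not the RefSeq promoter start.

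Rab19, a Golgi Rab, was the other member whose start region stayed above the 2-fold mark. The region, chr6:39380848-39381812, lies 98 bp upstream of the start and had 14.8 with vehicle and 7.75 with inhibitor, a difference of -0.85. This start region and the 3 regions just upstream of it are all also listed for Slc37a3. The 3 upstream regions behaved otherwise. They lay 1626, 3957 and 7311 bp upstream, had 15.0, 22.8 and 11.1 with vehicle and 3.71, 4.56 and 3.00 with inhibitor, and differed by -1.76, -2.10 and -1.59. Rab19 thus crossed the 2-fold mark when its strongest region was used in place of its start region (-2.10) and reached it with peak in place of average signal (-1.0).

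The 5 secretory Rabs had the lowest median vehicle signal of the groups, 16.6, a median of 3.86 with inhibitor and a median difference of -1.54. All 5 were at least 2-fold lower, against 94.9% of the start regions of all genes. None of the 5 was called with inhibitor, against 17.5% over all genes. In vehicle classes 1 to 7, which hold the start regions of all but Rab3d, the share over all genes was 2.34%. In classes 8 and 9, which hold that of Rab3d, it was 14.7%. Rab27a, which docks azurophilic and other granules for release in neutrophils, had 18.4 and 6.02 at chr9:73044241-73046271, a difference of -1.47. Rab3d, found on secretory granules, had 18.6 and 6.29, a difference of -1.43 that became -2.06 with the peak signal. Rab3a, known from synaptic vesicles, had 13.1 and 3.81. Rab26, linked to granule maturation, had 16.6 and 3.86, at a region 6381 bp downstream of its start. Rab37, a mast cell granule Rab, had 12.9 and 3.78, at a region 25858 bp into the gene. All 5 start regions are listed for at least 1 other gene, so none of these values belongs to a secretory Rab alone.

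Of the 4 Rabs placed in no compartment, Rab40b and Rab40c, which carry a SOCS box and join ubiquitin ligases, had 50.7 and 21.6 with vehicle and 9.61 and 5.96 with inhibitor. Their differences were -2.29 and -1.70. The Rab40b region lies 33851 bp downstream of its start and is also listed for Wdr45b, so the second strongest vehicle signal among the members is not that of the Rab40b promoter. Rab28, a ciliary Rab, had 25.2 and 6.38. Rab42 had 17.96 and 3.81 at a region 6008 bp upstream that is also listed for Snhg12 and 4 small nucleolar RNA genes.

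The 8 partner genes were close to the GTPases, whose 44 start regions had a median difference of -1.86. Their median signal was 23.4 with vehicle and 5.86 with inhibitor, and the median difference was -1.76 (-1.93 to -1.41). All 8 were at least 2-fold lower, against 94.9% of the start regions of all genes. Of the 8, 2 were called with inhibitor (25%), against 17.5%. Both counts are near the background. Rab11fip1, an effector that ties Rab11 to recycling vesicles, had 29.5 and 8.41, a difference of -1.70, over the widest start region, 6409 bp. Rab3gap1 and Rab3gap2, the catalytic and non-catalytic subunits of 1 complex that regulates Rab3 and Rab18, had 25.0 and 23.4 with vehicle and 5.86 and 7.00 with inhibitor. Rab3gap2 was called with inhibitor and Rab3gap1 was not. The remaining Rab11 effectors Rab11fip2, Rab11fip3, Rab11fip4 and Rab11fip5 had 15.7, 26.4, 14.5 and 23.3 with vehicle and 4.42, 6.37, 3.07 and 5.86 with inhibitor. The Rab11fip3 region lies 83673 bp downstream of its start and is also listed for 1700022N22Rik. That of Rab11fip4 lies 32883 bp into the gene and is also listed for Gm11202. Rab3il1, an exchange factor for Rab8 that binds Rab3, had 14.8 and 4.95 and the smallest difference of the 8.

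Set side by side, the 8 largest and the 8 smallest losses differed in the vehicle library much more than in the inhibitor library. The vehicle value enters the difference by which both groups were picked, so part of this contrast follows from the choice. The 8 members with the largest losses were Rab32, Rab6a, Rab1, Rab40b, Rab2a, Rab7l1, Rab43 and Rab11a, with vehicle signals of 17.6 to 52.3 (median 39.3). The 8 with the smallest were Rab34, Rab19, Rab35, Rab36, Rab33a, Rab1b, Rab3il1 and Rab3d, with 11.2 to 18.6 (median 14.3). With inhibitor the former ran from 2.87 to 9.76 (median 6.97) and the latter from 4.03 to 8.06 (median 5.96), so the inhibitor signals overlapped almost throughout. All 8 members with the smallest losses had a start region listed for another gene as well, against 3 of the 8 with the largest. Over all members, the 20 start regions listed for 1 gene had a median difference of -1.92 and the 32 listed for several had -1.71. The same split over all 13443 genes, of which 8619 had a start region listed for several, gave -1.72 and -1.72. The 2 member sets also differed in vehicle signal, with medians of 24.6 for those listed for 1 gene and 18.6 for the others. Measured from the median of their vehicle class, their median deviations were -0.02 and 0.05.

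The start regions were also compared by distance and by CpG island. The 35 within 1 kb of the start had a median difference of -1.84, the 6 between 1 and 2.5 kb had -2.03 and the 11 farther away had -1.86. A CpG island was recorded at 48 of 52 start regions (92.3%, against 75.3% over all genes) and a promoter at 50 (96.2%, against 92.3%). The 48 with an island had a median difference of -1.86, and those of all genes with an island had -1.77. The 4 without an island, those of Rab11fip4, Rab3a, Rab37 and Rab19, had -1.54, and start regions without an island over all genes had -1.55. Those 4 also had weak vehicle signals, from 12.9 to 14.8.

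Beyond the start regions, the members had 106 further regions, which were weaker and lost somewhat less. Their median signal was 13.7 with vehicle and 4.56 with inhibitor, the median difference was -1.54, 96 were at least 2-fold lower and 8 were called with inhibitor. Over all 158 regions the median difference was -1.62 against -1.61 for all regions of the table. The signal was at least 2-fold lower at 146 of the 158, or 92.4%, against 93.4%. An interval was called with inhibitor at 26 of the 158, or 16.5%, against 10.3%. The 53 member regions with neither promoter nor CpG island had a median difference of -1.52, and all 10193 such regions had -1.51.

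A few Rab genes carried long rows of regions. There were 4 members with 10 or more, or 7.69%, against 1.41% of all genes, while 44.2% of members had a single region, against 46.4% of all genes. Rab31 had 13 regions, Rab37 had 12, and Rab8b and Rab27a had 10 each, together 45 of the 158. The 13 regions of Rab31 ran from 9862 bp upstream to 98910 bp downstream of its start, and 11 of them list no other gene. Their vehicle signals ran from 10.8 to 24.4, their differences from -1.85 to -1.11, and none was called with inhibitor.

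The 12 Rab37 regions all lay from 25858 to 82234 bp downstream of the table's start, and each is also listed for Cd300lf or Slc9a3r1. They held the lowest inhibitor signal of any member region, 1.5, at chr11:115142576-115143248, where the vehicle signal was 10.7 and the difference -2.22. The region farthest downstream, with 20.9 and 6.65, was the 1 Rab37 region called with inhibitor. The 10 Rab27a regions ran from 5388 bp upstream to 43789 bp downstream. They had vehicle signals of 10.3 to 18.4 and differences of -1.92 to -1.06, and none was called with inhibitor. The 10 Rab8b regions had vehicle signals of 9.96 to 24.3 and differences of -1.91 to -1.05. The start region was the strongest of the Rab8b regions and the only 1 of them called with inhibitor.

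Rab11fip4 had 9 regions and its strongest was the farthest. It lay 112953 bp downstream of the start at chr11:79703351-79704979, had 34.3 with vehicle and 5.82 with inhibitor, and was called in both libraries. This region lies past the gene, is also listed for Mir193 and holds a CpG island and a promoter. Its difference of -2.37 was the largest of all 158 member regions, whereas the other 8 regions of the gene lay between -2.12 and -1.19. Rab5c had 7 regions, of which the start region and the 1 at 34638 bp (30.7 and 7.19, called in both) were strong. The latter is also listed for Dhx58, Kat2a and Hspb9. The 2 Rab5c regions at 13009 and 23940 bp had 11.8 and 12.8 with vehicle and 6.28 and 6.87 with inhibitor. They stayed above the 2-fold mark at -0.82 and -0.81, and both are also listed for Hspb9.

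**Figure D3:**
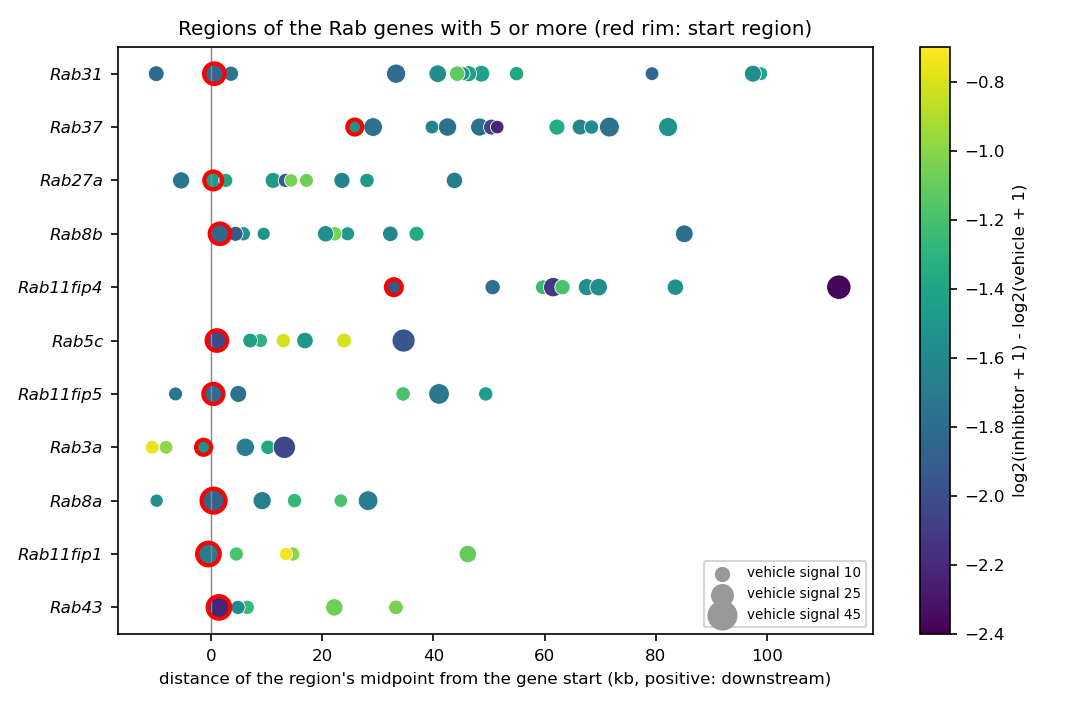
Regions of the Rab genes with 5 or more regions, by distance of the region's midpoint from the gene start (kb, positive downstream). Point area stands for the vehicle signal, colour for the difference on the log2(signal + 1) scale, and a red rim marks the start region. Small losses have the lighter colours, the 13 regions of Rab31 reach 98910 bp, and the Rab11fip4 region at 112953 bp has the darkest colour.

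Within a gene, the start region usually had the larger loss. Of the 29 members with several regions, 21 (72.4%) had a lower difference at the start region than the median of their other regions, against 60.0% of the 7209 genes with several regions. In 19 of the 29 (65.5%, against 53.3%) the start region also had the highest vehicle signal. Rab43 showed the widest contrast, with -2.22 at its start region and -1.59, -1.26, -1.07 and -1.05 at the other 4. The order was the other way round in the remaining 8, which were Rab19, Rab34, Rab3d, Rab3gap2, Rab13, Rab37, Rab3il1 and Rab27a. The widest gap among them was that of Rab19, with -0.85 at the start region and a median of -1.76 at the others. In 3 members a region called with inhibitor existed away from the start region and not at it. They were Rab34, Rab37 and Rab11fip4.

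**Figure D4:**
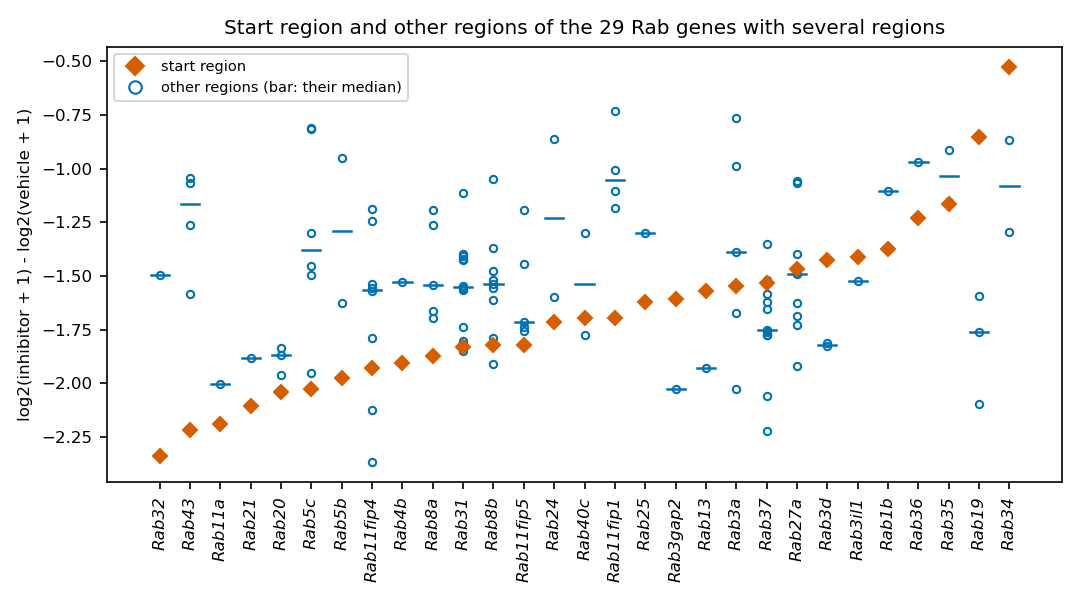
Difference on the log2(signal + 1) scale at the start region (diamond) and at each other region (circles, bar at their median) of the 29 Rab genes with several regions, ordered by the start region. The diamond lies below the bar in 21 genes, and Rab19 and Rab34, at the right end, are the 2 whose start regions lie above -1.

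Most genes that run the Rab cycle also had a lower H3K27ac signal with the inhibitor. Of 67 genes looked up, 62 had a region, and 58 of those had a start region at least 2-fold lower (median -1.79), against 94.9% of all genes. Of the 62, 13 were called with inhibitor (21.0%, against 17.5% of all genes), a share near the background. All 7 genes of lipid attachment and GDI were lower (median -1.85), among them Rabggtb, the beta subunit of Rab geranylgeranyl transferase, with 21.6 and 3.76, and Gdi2 with 19.8 and 4.64. Of the exchange factors, 20 of 22 had a region and 19 were lower (median -1.85), for example Dennd4a with 27.1 and 5.00. The Rab5 exchange factor Rabgef1 had 33.6 and 8.08.

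The GTPase activating proteins and effectors had smaller losses, at medians of -1.63 and -1.66, with vehicle medians of 17.9 and 16.7 against 22.7 for the exchange factors. All 18 activating proteins had a region and 17 were lower (94.4%), against 94.9% of the start regions of all genes. Tbc1d5, which acts on Rab7, had 35.6 and 4.92, a difference of -2.63 that was larger than that of any Rab start region. Tbc1d4, which acts on Rab10 in insulin-responsive cells, had 12.1 and 6.21, a difference of -0.86. Of the effectors, 17 of 20 had a region and 15 were lower (88.2%), a share under that of all genes. Rabep1, an effector of Rab5, had 11.5 and 7.62, a difference of -0.54, whereas the Rab27 effector Unc13d, needed for granule release, had 29.6 and 7.47. The Rab27 effector Sytl3 and the Rab5 exchange factor Rin2 also stayed above the 2-fold mark, at -0.61 and -0.90, with nearest regions 67655 and 20623 bp from their starts.

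Not every Rab gene was listed. RefSeq has 69 protein-coding mouse genes whose symbol begins with Rab and a digit, and 17 of them had no assigned region under that symbol. These were Rab3b, Rab3c, Rab3ip, Rab4a, Rab5if, Rab6b, Rab7, Rab7b, Rab9b, Rab17, Rab23, Rab27b, Rab33b, Rab38, Rab39, Rab39b and Rab44. Among them are Rab27b, the close relative of Rab27a, and Rab38, the partner of Rab32 in pigment cells. The absence of an assigned region says that no interval was listed for the gene, not that the gene carried no acetylation.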

How the data were processed

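Per the labels' protocols, chromatin of sorted cells was fixed, sheared and precipitated with an H3K27ac antibody together with a constant amount of Drosophila chromatin as spike-in, and libraries were read as 150 bp pairs. The submitters' processing notes name BWA and SICER with the builds hg19 and dm3, and neither a version nor a setting is given there. The coordinates are those of mouse GRCm38, since 48 of the 52 table starts lie within 1 kb of the RefSeq gene end, and they are printed as the table gives them. The authors deposited an average and a peak signal (fragment pileup) per region and library and whether an interval was called. Whether the signal was scaled by the spike-in is not given in the sources used here. No deposited average lies between 0 and 1. How the average was formed is not given, and its effect on weak signals was not tested. The input library has no column in the table and was not analysed here. No other column of per-sample values was left unmapped.

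From the signal, log2(inhibitor + 1) minus log2(vehicle + 1) was computed for each region with Python 3.11.15, pandas 2.3.3 and numpy 2.4.6, and figures were drawn with matplotlib 3.10.9. Distances run from a region's midpoint to the table's gene start. The vehicle classes hold equal numbers of regions. Calculations were tested on simulated data. With 1 library per treatment no test was made, and members are set beside all genes. Alternatives were peak signal, other pseudocounts, recentring, leaving out weak or shared regions, GTPases alone and other choices of a gene's region. Members named with full values were those with the 8 largest and 8 smallest differences, the 8 strongest vehicle signals, the 5 with most regions and a set with known roles in myeloid cells. Further members were named with their role. Members and lists were chosen with earlier results of these data known. The deposited symbols Rab1 and Rab7l1 were matched to RefSeq as Rab1a and Rab29.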

Additional observations from a re-analysis of the deposited data

How the results depend on the processing

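The 2 medians stayed below 0 under each alternative run. After recentring, 39 of 52 start regions lay below the median of all regions, against 8164 of 13443 over all genes. The other 13 lay above it, among them Rab34 (1.08), Rab19 (0.75) and Rab35 (0.44). The median difference of the Rab start regions, -1.85, was -2.04 with peak signal, -1.995 with no pseudocount, -1.86 with a pseudocount of 0.99 (10% of the median signal), -1.89 with weak regions left out (46 members), -1.92 with regions listed for 1 gene (20), -1.86 with GTPases alone, -1.86 with each gene's strongest region, -1.71 with the mean over its regions, -1.84 within 1000 bp of the start (35) and -0.25 after recentring on the median of all regions. The median over all Rab regions, -1.62, was -1.67 with peak signal, -1.84 with no pseudocount, -1.77 with weak regions left out (94 regions), -1.70 with regions listed for 1 gene (56) and -0.015 after recentring. Recentring moves all regions by 1.61 and leaves 0 start regions and 0 regions at least 2-fold lower, against 50 and 146. With smaller sets the counts were 20 of 20 start regions listed for 1 gene, against 94.2% over all genes, and 33 of 35 start regions within 1000 bp, against 96.0%. They were 56 of 56 regions listed for 1 gene and 89 of 94 regions without the weak ones, against 93.4% of all regions without either filter. Of 26 members with a region listed for 1 gene, 9 kept a call with inhibitor, against 21 of 52. Counting any region, 25.0% of all genes kept a call.

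Single members depended on the choice of region or signal. Rab34 passed the 2-fold mark with its strongest region (-1.29), Rab19 with its strongest region (-2.10), the mean of its regions (-1.56) and the peak signal (-1.0), and Rab36 lost it with its strongest region (-0.97). With peak signal, differences grew by over 1.5-fold for Rab2a (-3.03), Rab22a (-2.86), Rab21 (-2.72), Rab40c (-2.44), Rab11fip5 (-2.44) and Rab3d (-2.06), and Rab43 had -1.48 with the mean of its regions. No paired analysis was possible because each treatment has 1 library. The scaling of the libraries is not known, so a shift common to all regions cannot be told apart from a scaling factor.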

Other observations

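Several Rab genes without an assigned region overlapped regions that the table lists for no gene or under another symbol. Rab7, the central Rab of late endosomes and phagolysosome formation, overlapped 2 regions with no gene listed. The 1 that holds its RefSeq start, chr6:88043870-88045972 (GRCm38), had 36.7 with vehicle and 9.41 with inhibitor, a difference of -1.86, and was called in both libraries. The other, chr6:88035880-88036523, had 9.75 and 2.90. The values at the Rab7 start resemble those of Rab5a and Rab5b.

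Rab44, a large Rab with a role in mast cell granule release, overlapped 3 adjacent regions on chromosome 17 with no gene listed. The first, from 29113270 to 29115441, had 15.1 and 3.62, a difference of -1.80. The second, from 29115458 to 29116471, had 16.0 and 2.38, a difference of -2.33. The third, from 29116574 to 29117459, had 12.9 and 4.26, a difference of -1.41. Rab7b, an endosome to Golgi Rab, overlapped 2 regions listed under 5430435G22Rik, with 12.8 and 17.7 with vehicle and 4.0 and 4.34 with inhibitor. Rab5if, a Rab5 interactor by name, overlapped a region listed under 1110008F13Rik that holds its RefSeq start, with 31.7 and 6.96, and a weaker 1 with 11.1 and 2.30.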
